A study of Mus musculus with 36 samples.

Results

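The hypothalamus of ataxin-3 transgenic mice, a model of hypocretin neuron loss, was compared with that of wild-type mice of the same line. The comparison covered all genes counted. The comparison rests on 6 of the 36 libraries of the series, chosen by their labels: 3 from ataxin-3 transgenic mice and 3 from wild-type mice. The other libraries come from cortex and brainstem of both genotypes, and from the same 3 tissues of mice without the Hcrt gene and their own wild types. The stated aim was to find genes that change when hypocretin cells, or hypocretin alone, are missing.

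The transgenic mice carry the Hcrt/Orexin-ataxin-3 transgene (tg/+), and their controls are the wild types of that line (+/+). The knockout mice, used below only for comparison, lack Hcrt but keep the cells that would have made it, and they have a wild-type group of their own (+/+). The labels give the strain C57BL/6 for all mice. They give neither age nor sex, no treatment, and no word on whether each library is its own animal, so p-values measure the spread between these libraries, which may be technical. As background, the transgene is a shortened ataxin-3 with a long glutamine stretch, driven by the human prepro-orexin promoter, so its toxic product is made in hypocretin neurons. The labels do not state how the hypothalamus was cut out. In whole tissue, fewer cells of a type and less RNA per cell cannot be told apart.

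Hypocretin, also called orexin, is a peptide that keeps animals awake and steadies the switch between wake and sleep. It is cut from the product of Hcrt, which is made by a small group of neurons in the lateral hypothalamus, and it acts through the receptors Hcrtr1 and Hcrtr2. Loss of these neurons gives narcolepsy with cataplexy. The same cells also make other peptides, among them dynorphin from Pdyn and, in part of them, the peptide from Qrfp, and they lie among neurons that make melanin-concentrating hormone (MCH) from Pmch.

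The results turn on the genes Hcrt and Qrfp. The bases just upstream of their start sites are shown because a hypocretin promoter drives the transgene in this model, and they are the mouse gene's own, not the transgene's. Both run 5′ to 3′ on the minus strand, end at the base before the RefSeq start site and come from GRCm38.p6, Hcrt from chr11:100762932-100763181 and Qrfp from chr2:31810581-31810830. Capitals mark the letters TATAAA, the core of a TATA box.
Hcrt: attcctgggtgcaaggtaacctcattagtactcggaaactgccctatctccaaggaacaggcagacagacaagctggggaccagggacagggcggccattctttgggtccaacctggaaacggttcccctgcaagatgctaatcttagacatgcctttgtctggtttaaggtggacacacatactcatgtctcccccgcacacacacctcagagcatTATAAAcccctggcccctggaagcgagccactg
Qrfp: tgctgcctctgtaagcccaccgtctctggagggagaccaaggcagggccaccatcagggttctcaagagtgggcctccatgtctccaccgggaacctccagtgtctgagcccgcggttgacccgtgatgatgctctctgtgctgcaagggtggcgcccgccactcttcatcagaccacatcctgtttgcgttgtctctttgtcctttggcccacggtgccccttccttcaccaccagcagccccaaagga
TATAAA was searched on both strands, as was CCAAT. In the Hcrt window TATAAA starts 33 bases before the start site. The Qrfp window holds neither. Over 32851 upstream windows of 250 bases, 12.4% hold TATAAA and 33.8% hold CCAAT.

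Gene counts per library ran from 26146840 to 47057537 in the 6 libraries, and the level given below is CPM, the count over the TMM-scaled library size, unless another unit is named. Hypothalamic identity held in each library: Pmch lay between 530 and 781 CPM and Avp, the vasopressin gene, between 114 and 247. Pituitary or nasal RNA was high in 3 of the 6, and striatal RNA, which was spread otherwise, is given below. Growth hormone (Gh), a product of the pituitary, lay at 23800 CPM in wild-type library 1 and 12500 in library 3, against 8.28 in library 2 and 9.75 to 24.3 in the transgenic libraries. Olfactory marker protein (Omp), made by sensory neurons of the nose, was at 653 CPM in transgenic library 1 and at 0.77 to 1.56 in the other 5, and the nasal secretory gene Bpifa1 and the collagen gene Col1a1 were high in the same library, at 797 and 357 CPM. The first principal component, with 54.8% of the variance, set transgenic library 1 apart at -75.09, and the second, with 28.3%, set wild-type libraries 1 and 3 apart at 38.99 and 29.06. Values without these 3 libraries rest on 2 transgenic libraries and 1 wild-type library. They are given below, as values without the 3 libraries, for the lists and for the genes they move most. The libraries left also differed in striatal RNA. Adora2a, a striatum marker, lay at 10.5 and 9.59 CPM in transgenic libraries 2 and 3 and at 1.76 in wild-type library 2. Of the libraries left out, wild-type library 3 was as high, at 9.60. Transgenic library 1 and wild-type library 1 were at 1.10 and 1.14. In that fit 8 of 8 striatum genes lay higher with a median of 1.15, against 6 of 8 and 0.39 with all libraries. Genotype and striatal RNA cannot be told apart there. The hypothalamus fit also left out wild-type library 3 of the knockout line, where Gh was at 17400 CPM. No 2 libraries of a group were copies, as their counts differed by 5.71 to 67.4 times sampling noise (chi-square per degree of freedom).

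**Figure D1:**
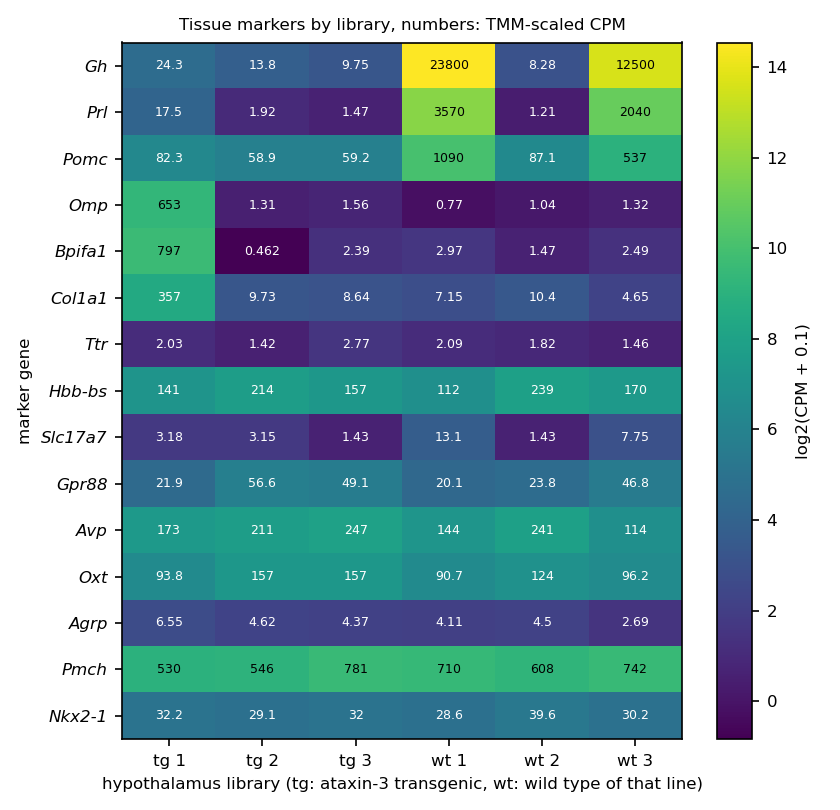
Levels of 15 tissue markers in the 6 hypothalamus libraries, with the TMM-scaled CPM written in each cell and the colour giving log2(CPM + 0.1). Gh, Prl and Pomc are high in wild-type libraries 1 and 3, Omp, Bpifa1 and Col1a1 in transgenic library 1, and the hypothalamic markers Avp, Oxt, Pmch and Nkx2-1 are present in all 6.

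Hcrt was the gene that fell. Its level was 2.28, 2.42 and 2.60 CPM in the transgenic libraries and 192, 107 and 209 CPM in the wild-type libraries, from 91, 63 and 122 counts against 5244, 3296 and 7126. The transgenic libraries lay close together and far below the wild types, which themselves spread over nearly 2-fold. The mean was 2.43 ± 0.163 CPM against 169 ± 54.3 (SD, n = 3 each). The log2 fold change was -6.12 (SE 0.30), and the edgeR quasi-likelihood, Benjamini-Hochberg adjusted p was 9.5e-06. It was 1 of 16738 tested genes past the threshold of 0.05, or 0.00597%. With Gh and Omp as covariates the log2 fold change was -5.91, and without the libraries with pituitary or nasal RNA it was -5.41, with the gene still past the threshold in both fits. Fitted on only these 6 libraries it was -6.12 with an edgeR adjusted p of 0.12.

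The transcript that was left stayed countable in every transgenic hypothalamus. In transgenic cortex Hcrt had 2, 2 and 2 counts and in transgenic brainstem 1, 1 and 1, so the residue in hypothalamus was larger than in either region. The knockout hypothalamus held 34, 39 and 34 counts, 1.23, 1.09 and 1.07 unscaled CPM, against 2.32, 2.41 and 2.59 in the transgenic libraries. The groups of values did not overlap, and the tested difference of the effects on Hcrt in the 2 models was -0.22 (SE 0.41, edgeR adjusted p = 0.98). The knockout counts were not confined to hypothalamus. Knockout brainstem held 29, 27 and 42 counts against 5, 0 and 2 in its wild types. Knockout cortex held 17, 10 and 9 against 1, 30 and 1.

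The other genes of the chromosome 11 stretch around Hcrt did not pass the test. Of 41 tested genes within 500 kb, 0 were called. In all transgenic libraries 3 lay higher and 2 lower, against 5.21% and 4.70% of all tested genes, and their log2 fold changes ranged from -0.42 to 1.84 with a median of 0.03. The upper end is Kcnh4, a potassium channel gene, at 27.4, 3.85 and 3.48 CPM against 2.02, 3.29 and 4.39. Its high value is that of transgenic library 1, and without that library the log2 fold change was 0.17. Ghdc, the gene on the other side of Hcrt, was at 10.2, 9.58 and 9.47 CPM against 9.28, 10 and 9.22, a log2 fold change of 0.04 (SE 0.10).

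Qrfp, which encodes a feeding and arousal peptide related to neuropeptide FF, was lower in all 3 transgenic libraries. It was at 2.23, 1.54 and 1.75 CPM against 3.85, 5.15 and 3.54, from 89, 40 and 82 counts against 105, 158 and 121. The highest transgenic value lay below the lowest wild-type value. The log2 fold change was -1.18 (SE 0.21). Its edgeR adjusted p of 0.42 did not pass the main test, while DESeq2 gave an adjusted p of 0.0039 and limma voom 0.067. With Gh and Omp as covariates the change was -1.56, and without the libraries with pituitary or nasal RNA -1.64. In the knockout hypothalamus Qrfp lay at 6.58, 7.0 and 5.68 unscaled CPM against 4.95, 6.85 and 4.73, a log2 fold change of 0.22 (SE 0.20). The effects of the 2 models differed by -1.39 (SE 0.29), which did not pass the edgeR test (adjusted p = 0.98). Cortex and brainstem of the ataxin-3 line held 1 Qrfp count in all, in a wild-type cortex library.

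**Figure D2:**
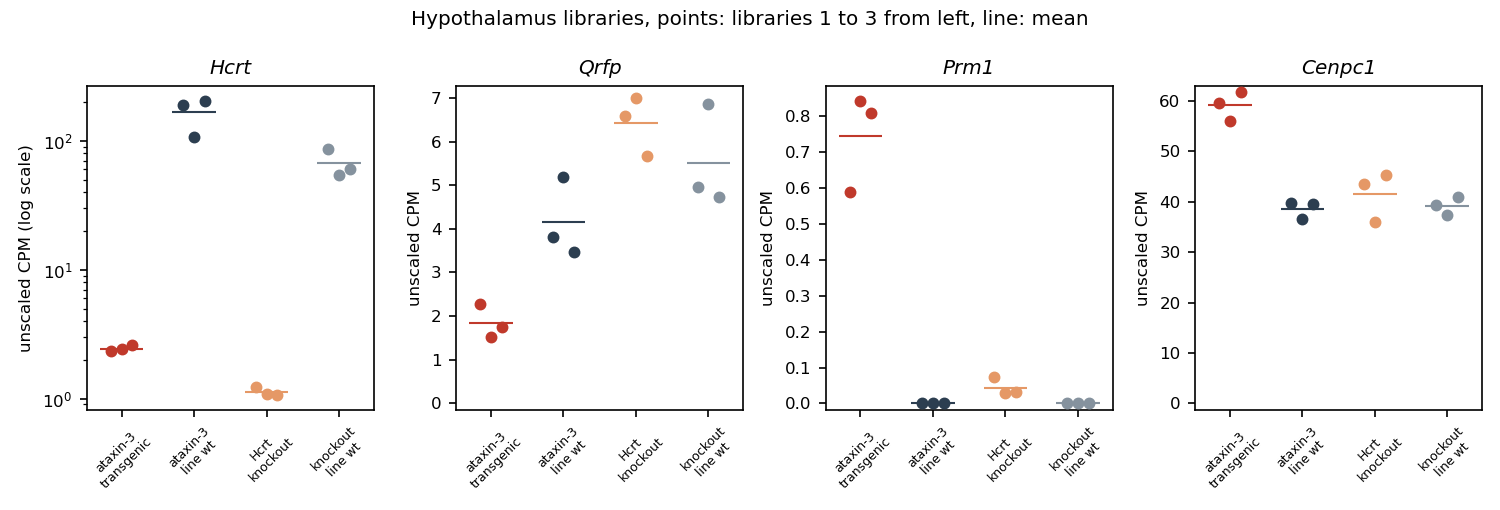
Unscaled CPM of Hcrt (log axis), Qrfp, Prm1 and Cenpc1 in each of the 12 hypothalamus libraries, with the mean of each group as a line. Hcrt is low in both models, Qrfp is lowest in the ataxin-3 transgenic libraries, Prm1 is present in all 3 of them and at 0 in the 6 wild-type libraries, and Cenpc1 is high in the transgenic libraries alone among the 4 groups.

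Markers of hypocretin neurons other than Hcrt itself, 10 in number, were all tested. None passed the threshold, 8 lay lower, against 47.3% of all tested genes, and 2 higher, and 5 had separate groups, all transgenic libraries below all wild-type ones, against 4.70% of all tested genes. The list's median log2 fold change was -0.20 beside 0.01 over all genes, and -0.32 without transgenic library 1. The 5 were Qrfp, Dlk1, Scg2, Lhx9 and Igfbp3. Dlk1, a membrane protein of the Delta-Notch family that hypocretin neurons carry in quantity, was at 312, 312 and 301 CPM against 555, 334 and 405, a log2 fold change of -0.48 (SE 0.17). Scg2, a secretory granule protein, was at 1110, 1250 and 1370 CPM against 1870, 1410 and 1590, a log2 fold change of -0.38 (SE 0.13).
Both were highest in wild-type libraries 1 and 3, the ones with pituitary RNA. With Gh and Omp as covariates the changes were -0.22 for Dlk1 and -0.12 for Scg2, without the 3 libraries -0.13 and -0.11, and the part of pituitary RNA in them was not tested further. Lhx9, a homeobox factor that promotes the formation of hypocretin cells, was at 1.45, 3.15 and 2.90 CPM against 3.82, 3.26 and 5.76, and its log2 fold change of -0.78 (SE 0.35) became -0.19 with the covariates. Igfbp3, which binds insulin-like growth factors, was at 17.7, 15.6 and 16.3 CPM against 22.7, 18.3 and 19.3, and its log2 fold change of -0.28 became 0.01 with the covariates. Of the 5, Qrfp had a change that grew, not shrank, in that fit.

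The transmitter genes of these cells that many other neurons share had overlapping groups. Pdyn, the dynorphin precursor, was at 82.5, 88.0 and 86.1 CPM against 81.7, 102 and 85.1. Slc17a6, the vesicular glutamate transporter of hypothalamic neurons, was at 344, 337 and 366 CPM against 357, 415 and 367. Gal, the galanin gene, was at 30.8, 42.2 and 46.0 CPM against 32.4, 39.7 and 32.6. Their log2 fold changes were -0.07 (SE 0.13), -0.12 (SE 0.12) and 0.19 (SE 0.20). Ebf2, a helix-loop-helix factor, had a log2 fold change of 2.25 that rests on 72.2 CPM in transgenic library 1 and was -0.36 without it.

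No receptor gene passed the test. Hcrtr1 was at 6.85, 8.08 and 6.89 CPM against 8.40, 8.83 and 6.47, a log2 fold change of -0.12 (SE 0.17). Hcrtr2, the receptor of histamine neurons, was at 16.1, 18.4 and 16.5 CPM against 15, 17.7 and 14.6, a log2 fold change of 0.11 (SE 0.12). Qrfpr, the receptor for the Qrfp peptide, had 0.18 (SE 0.17). The groups overlapped for all 3.

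Neighbouring and downstream neurons were read through their defining genes. Pmch was at 530, 546 and 781 CPM against 710, 608 and 742, with overlapping groups and a log2 fold change of -0.15 (SE 0.22). The 5 genes of the MCH neuron list all had a log2 fold change below 0, down to -0.16, with a median of -0.14 that became 0.01 with Gh and Omp as covariates, and no gene's groups were separate. Tacr3, a tachykinin receptor gene, was at 19.1, 22.5 and 21.9 CPM against 22.1, 22.2 and 25.8. Mchr1, the MCH receptor, had a log2 fold change of -0.08 (SE 0.15). Hdc, which makes histamine, was at 78.7, 63.3 and 61.9 CPM against 55.2, 80.7 and 62.1, and none of the 7 histaminergic genes had separate groups, with a median of 0.02. Th, the entry enzyme of dopamine synthesis, was at 28.9, 33.8 and 30.4 CPM against 30.0, 47.6 and 33.4, and 0 of the 7 dopamine genes were separate.

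Reads assigned to Prm1, the gene of the protamine that packs sperm DNA, were counted in the transgenic hypothalami and not in their wild types. It had 23, 22 and 38 counts in the transgenic libraries, 0.575, 0.846 and 0.81 CPM, and 0, 0 and 0 in the wild-type libraries. Across all 38924 genes in the tables it was the 1 gene with more than 3 counts in every transgenic library and 0 in every wild-type library, and 0 genes showed the opposite. Over the pooled libraries it was at least 22.8-fold higher, from 0.739 unscaled CPM against the 0.0323 that 3 counts over the 3 wild-type libraries would give. The edgeR adjusted p was 0.051, just over the threshold, and it was 0.021 with no filter on low counts, 0.0039 by DESeq2 and 8.0e-07 by limma voom. All 3 transgenic libraries contributed to a like degree, including libraries 2 and 3, in which Omp stayed at 1.31 and 1.56 CPM. The tables count reads assigned to Prm1 and do not tell a transcript of the mouse gene from one of Prm1 sequence inserted elsewhere. The sequence of the transgene and the reads were not analysed here.

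The Prm1 signal came without its neighbours and without other sperm genes. Prm1 occupies chromosome 16 from 10796326 to 10805839 (GRCm38, minus strand), next to Prm2, Prm3 and Tnp2, which serve the same packing of sperm DNA. Prm2 had 0 counts in the transgenic and 1 in the wild-type libraries, and Prm3 and Tnp2 had 0 in both. Of 12 spermatid genes listed, 2 were expressed enough to test. Within 500 kb, 18 genes were tested, 0 had separate groups, and their log2 fold changes ranged from -0.38 to 0.35. The predicted genes Gm10343 and Gm46563 overlap Prm1 on the other strand, and how the counting treated strand is not given in the sources used here.
In the other regions of the transgenic mice Prm1 was near the limit of detection: 0, 0 and 0 counts in cortex and 0, 1 and 0 in brainstem. The knockout line had 2, 1 and 1 counts in hypothalamus and 1, 3 and 1 in brainstem, while its wild types had 0 in all 6 of those libraries. A count of 0 allows up to 3 counts, for counting error only.

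Cenpc1 was higher in transgenic hypothalamus in every library. The gene, at 86012024 to 86065583 on chromosome 5 (GRCm38, minus strand), encodes centromere protein C, a platform on which the kinetochore of dividing cells is built. It was at 58.5, 56.3 and 61.9 CPM against 40.1, 36.3 and 40.2, from 1094 counts or more in each library, and both groups were tight. The mean was 58.9 ± 2.83 CPM against 38.9 ± 2.26 (SD, n = 3 each). On the log2 scale this is 0.60 (SE 0.09). The edgeR adjusted p of 0.13 did not pass, while DESeq2 gave 2.7e-06 and limma voom 0.0046. It was 0.71 with Gh and Omp as covariates, 0.70 without the libraries with pituitary or nasal RNA, and 0.60 without transgenic library 1.
The difference was of like size in the other regions of the same line. In cortex Cenpc1 lay at 33.0, 37.9 and 39.0 unscaled CPM against 26.2, 27 and 25.8, and in brainstem at 41.3, 40.8 and 39.7 against 28.3, 20.8 and 28.8. The log2 fold changes were 0.46 (SE 0.08, edgeR adjusted p = 0.40) in cortex and 0.56 (SE 0.08, edgeR adjusted p = 0.036) in brainstem, where 2 of 17395 genes were called, 0.0115%, the other being the pseudogene Gm9770. The difference between hypothalamus and cortex was 0.13 (SE 0.11) and between hypothalamus and brainstem 0.03 (SE 0.11). In the knockout hypothalamus it was 43.5, 36 and 45.3 unscaled CPM against 39.3, 37.4 and 41.0, a log2 fold change of 0.08 (SE 0.09), and the models' effects differed by 0.52 (SE 0.13, edgeR adjusted p = 0.98). Of the 18 other centromere genes tested, 11 lay higher and 7 lower, with a median of 0.05, and Mis18a was the 1 gene among them with higher values in every transgenic library, at 0.33 (SE 0.19). On chromosome 5 the tested neighbours within 500 kb were Uba6, at -0.01, and Gnrhr, a pituitary receptor gene with 359 and 316 counts in wild-type libraries 1 and 3, at -5.00. The adjacent gene Stap1, too low to test, had 159 counts in transgenic library 1 and 0 to 3 in the other 5.

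**Figure D3:**
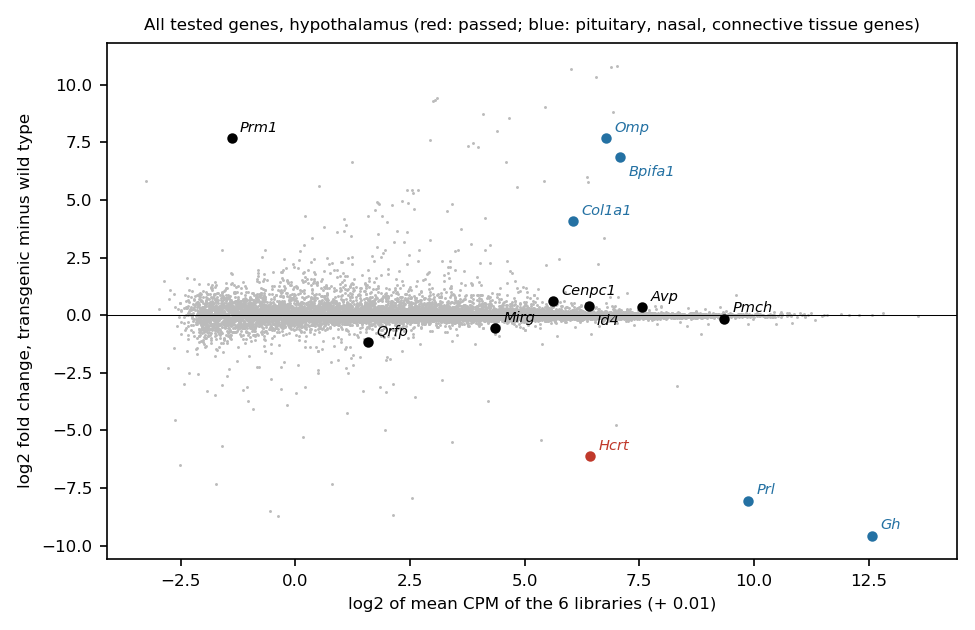
Log2 fold change against mean level for the 16738 tested genes, with the gene past the threshold in red and genes of pituitary, nose and connective tissue in blue. Hcrt lies at -6.12, the blue genes rest on the level of 1 or 2 libraries, and the value of Prm1 is a fitted one that depends on the prior count since its wild-type counts are 0.

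Hcrt included, 697 of the 16738 genes (4.16%) had an unadjusted p under 0.05, 518 of them higher (3.09%) and 179 lower (1.07%), where a share of 0.05 would be 837. Groups were separate in 872 genes upward (5.21%) and 786 downward (4.70%), 9.91% in all. DESeq2 called 7 genes (0.0422%), Hcrt, Cenpc1, Prm1, Qrfp, Id4, Gh and Mirg, and limma voom with quality weights called 4 (0.0239%), Prm1, Hcrt, Cenpc1 and Id4. Gh is among them with groups that overlap, high in wild-type libraries 1 and 3 and low in library 2. The genes that follow are the next smallest p-values with separate groups, and each had an edgeR adjusted p of 0.98 or more.

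Among those higher, Id4 and Ifit1 belong to groups described below. Ninj2, a cell adhesion gene, was at 1.85, 2.08 and 1.94 CPM against 1.28, 1.24 and 1.2, a log2 fold change of 0.65 (SE 0.16). Gypc, a membrane skeleton protein of red cells, was at 3.08, 3.08 and 2.84 CPM against 1.61, 1.89 and 1.05, a change of 0.98 (SE 0.25) that was 0.64 without the 3 libraries. Htr3b, a subunit of the serotonin-gated channel, was at 0.926, 1.12 and 0.981 CPM against 0.514, 0.521 and 0.644, a change of 0.83 (SE 0.22).
The other 3 were highest in transgenic library 1. Anpep, a peptidase of vessel-associated cells, was at 10.1, 5.58 and 4.50 CPM against 2.97, 3.75 and 2.28, and its change of 1.17 became 0.74 without that library and 0.42 without the 3 libraries. Ccdc3, a secreted protein, was at 17.1, 13.2 and 12.2 CPM against 8.33, 11.2 and 7.99, with 0.63, 0.46 and 0.17 in turn. Ptprr, a neuronal phosphatase, was at 31.3, 26.4 and 27.3 CPM against 21.6, 23.0 and 24.1, with 0.31, 0.23 and 0.22.

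Among those lower, Kcng4 encodes a modifier subunit of potassium channels and was at 2.28, 2.85 and 3.43 CPM against 4.81, 4.95 and 4.86, a log2 fold change of -0.77 (SE 0.18). Cish, a feedback inhibitor of cytokine signalling, was at 6.10, 7.93 and 6.82 CPM against 10.8, 10.1 and 9.07, a change of -0.52 (SE 0.12). In the knockout Cish had -0.36. Mroh5 was at 0.70, 0.654 and 0.768 CPM against 1.21, 1.56 and 1.14, a change of -0.87 (SE 0.22), and Rrnad1 at 22, 22.1 and 22.9 CPM against 25.1, 28.7 and 26.4, a change of -0.26 (SE 0.07).
Lars2, the mitochondrial leucyl-tRNA synthetase, was at 481, 466 and 366 CPM against 601, 562 and 570, a change of -0.40 (SE 0.11). In brainstem its groups overlapped, at 631, 762 and 766 unscaled CPM against 2040, 7590 and 239. The 7590 is from wild-type library 2, with 42% of its counts in unassigned rows. Cortex of the line held 33.4 to 39.0 unscaled CPM. Whether all reads assigned to Lars2 come from the synthetase transcript was not tested. Hist1h1e, a linker histone gene, had -1.27 (SE 0.34) on levels under 1.4 CPM, and Vmn2r87, a vomeronasal receptor gene, -0.83 (SE 0.23) on levels under 1.2 CPM. Mroh5, Rrnad1 and Hist1h1e overlap other genes, so their reads may be shared.

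**Figure D4:**
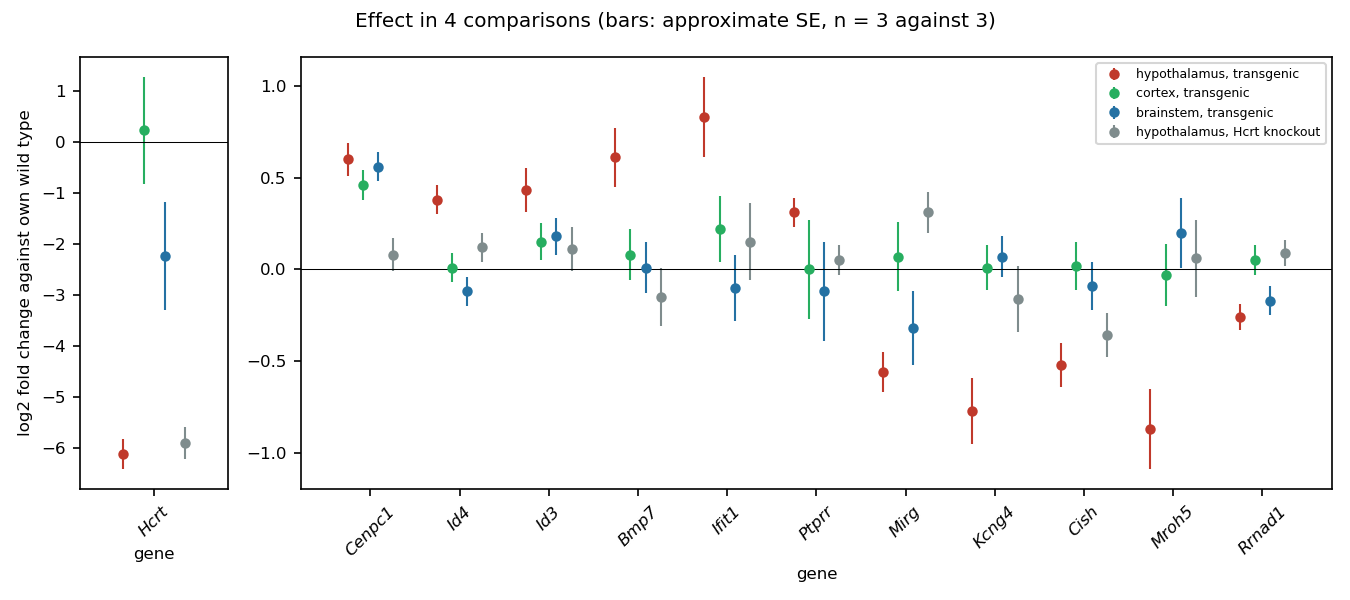
Log2 fold change against the own wild type, with approximate SE, of 12 genes in transgenic hypothalamus, cortex and brainstem and in knockout hypothalamus (n = 3 against 3 each). Cenpc1 is high in the 3 transgenic tissues and at 0.08 in the knockout, Hcrt is low in both models' hypothalami, and the other genes lie away from 0 mainly in transgenic hypothalamus, the comparison by which they were named.

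Apart from Hcrt, which was not on the list, no hypothalamic neuropeptide or peptide-processing gene passed the test. Of 32 such genes 30 were tested, and 18 lay higher and 12 lower, against 52.7% and 47.3% of all tested genes. The median was 0.07. Separate groups were found in 3, all lower, against 4.70% of all tested genes: Pcsk1, Cck and Vgf. Pcsk1, the convertase that cuts peptide precursors, was at 55.3, 56.2 and 56.2 CPM against 96.5, 68.5 and 77.0, a log2 fold change of -0.53 (SE 0.15). Vgf, a granule protein, was at 167, 205 and 206 CPM against 226, 223 and 218, a change of -0.21 (SE 0.13). Cck, the cholecystokinin gene, was at 12.5, 9.77 and 12.3 CPM against 14.5, 15.2 and 18.8, a change of -0.48 (SE 0.28).
Pcsk1 and Chgb, a granin, are also made in the pituitary, and both were highest in wild-type libraries 1 and 3. Chgb was at 308, 321 and 366 CPM against 796, 341 and 624, with -0.82 (SE 0.34), and with Gh and Omp as covariates it was -0.06, while Pcsk1 was -0.36. Without the 3 libraries Pcsk1 was -0.29. The part of pituitary RNA in them was not tested further.
The large peptide genes had overlapping groups. Avp was at 173, 211 and 247 CPM against 144, 241 and 114. Oxt, the oxytocin gene, was at 93.8, 157 and 157 CPM against 90.7, 124 and 96.2. Trh, the thyrotropin-releasing hormone gene, was at 96.7, 127 and 147 CPM against 104, 93.3 and 96.1. These 3 had log2 fold changes of 0.34 to 0.39 with SE of 0.16 to 0.29. Npy and Agrp, the hunger peptides of the arcuate nucleus, had 0.05 (SE 0.18) and 0.46 (SE 0.30).

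No hypothalamic transcription factor passed the test, and some factors of the posterior hypothalamus lay lower in every transgenic library. Of 22 factors tested 3 were separate upward and 4 downward, against 5.21% and 4.70% of all tested genes, and the median was -0.01. Barhl1 was at 1.48, 2.08 and 1.94 CPM against 3.27, 4.01 and 2.55, a log2 fold change of -0.84 (SE 0.40). Lmx1a was at 2.13, 2.62 and 3.05 CPM against 4.84, 5.67 and 3.19, a change of -0.81 (SE 0.39), and Lmx1b had -0.47 (SE 0.33).
The nicotinic receptor genes Chrna6 and Chrnb3, named after their values were seen, also lay lower in every transgenic library, Chrna6 at 1.35, 2.08 and 1.92 CPM against 6.86, 7.72 and 3.98 and Chrnb3 at 0.65, 1.54 and 0.789 CPM against 11.9, 3.75 and 7.49. Their log2 fold changes of -1.80 (SE 0.81) and -2.99 (SE 1.15) became -1.07 and -0.93 with Gh and Omp as covariates, and -1.96 and -1.74 without the 3 libraries. Nr4a2, a factor of midbrain dopamine neurons and an immediate early gene, was at 13.9, 14.5 and 13.3 CPM against 22.7, 22.9 and 15.1. Of the 7 genes of the dopamine list none had separate groups, 3 lay higher and 4 lower, and the median was -0.03. Thalamus markers, 7 of 8 lower with none separate, were summed to 80.2 to 84.2 CPM in the transgenic and 76.3 to 136 CPM in the wild-type libraries, with Tcf7l2 at 39.3 CPM in wild-type library 3 and 16.2 to 18.2 in the other 5. The factors higher in every transgenic library were Isl1 at 0.21 (SE 0.09), Otp at 0.22 (SE 0.12) and Six3 at 0.22 (SE 0.12), or 0.10, 0.09 and 0.23 without the 3 libraries.

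No clock or activity gene passed the test. Of 19 clock genes 2 were separate upward and 1 downward, against 9.91% of all tested genes in either direction, with a median of 0.07. Cry1, a repressor of the clock, was at 35.0, 32.2 and 34.3 CPM against 31.0, 29.6 and 30.4, and Ciart, another repressor, had 0.29 (SE 0.11) with overlapping groups. Of 21 immediate early genes none passed, 14 lay higher and 7 lower, with a median of 0.10 that was -0.05 without transgenic library 1. Jun was at 65.4, 52.3 and 57.9 CPM against 46.7, 50.4 and 47.4, a change of 0.28 (SE 0.09) that was 0.12 without the 3 libraries, and Egr4 at 3.05, 2.39 and 3.24 CPM against 1.72, 1.82 and 2.08, a change of 0.63 (SE 0.26). Jun shares reads with the antisense gene Junos if strand was not used.

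Among stress, protein quality control and cell death genes a single gene had separate groups, against 9.91% of all tested genes, and none passed. Mouse Atxn3, which the human transgene resembles, was at 29.8, 28.3 and 29.5 CPM against 28.5, 27.8 and 27.7, a log2 fold change of 0.06 (SE 0.11). Over 14 genes of ataxin-3 and ubiquitin quality control the values ran from -0.11 to 0.06, and Ube4b, a ubiquitin ligase, lay lower in every library at -0.09 (SE 0.08). Vcp, an ATPase that binds ataxin-3, was at 264, 262 and 276 CPM against 253, 257 and 264. Of 20 heat shock and endoplasmic reticulum stress genes none was separate, with a median of 0.04, and the largest value, 1.39 for Trib3, rests on 3.63 CPM in transgenic library 1 and was 0.23 without it. Of 12 apoptosis and p53 target genes 0 were separate, with a median of 0.02.

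Microglia and interferon genes lay higher by small amounts, none past the threshold. Of 21 microglia genes tested 19 lay higher and 3 were separate, against 52.7% and 5.21% of all tested genes. The median was 0.09, or 0.12 without transgenic library 1. Tmem119, a marker of resident microglia, was at 20, 16.2 and 15.1 CPM against 14, 14.6 and 13.9, a log2 fold change of 0.27 (SE 0.11) that was 0.10 without the 3 libraries, and C1qa, a complement subunit, at 28.8, 28.0 and 30.7 CPM against 27.9, 27.8 and 27.6, a change of 0.07 (SE 0.10). The third was Clec7a, at levels of 0.556 to 1.13 CPM. The summed level of the list was 589 to 624 CPM against 539 to 559.
Interferon-stimulated genes lay higher in 10 of 12, 4 of them separate, against 52.7% and 5.21% of all tested genes. Their median of 0.22 was 0.08 without transgenic library 1 and 0.22 with Gh and Omp as covariates, and without the 3 libraries 7 lay higher and 5 lower with a median of 0.07. Ifit1 was at 10.4, 6.5 and 6.01 CPM against 4.18, 4.98 and 3.75, a change of 0.83 (SE 0.22) that was 0.54 without that library and 0.32 without the 3 libraries. Ifit3 was at 16, 15.4 and 17.5 CPM against 12, 13.8 and 11.6, a change of 0.39 (SE 0.11), 0.40 without it and 0.25 without the 3. Mx1 and Gbp2 were the others, at 0.83 (SE 0.53) and 0.24 (SE 0.18). H2-Ab1, an antigen-presenting molecule, was at 9.21, 4.23 and 5.08 CPM against 3.41, 3.06 and 2.14. It was the 1 separate gene of 11 tested T cell and antigen presentation genes, against 9.91% of all tested genes in either direction.
None of 14 astrocyte genes was separate. Gfap, the astrocyte filament, was at 265, 287 and 300 CPM against 194, 279 and 183, a change of 0.38 (SE 0.14) that was 0.07 without the 3 libraries. Oligodendrocyte genes had a median of 0.08 over 10, with overlapping groups in each. Precursor genes lay higher in 9 of 9, against 52.7% of all tested genes, with a median of 0.09. They lay higher in 5 of 9 with Gh and Omp as covariates (median 0.02) and in 6 of 9 without the 3 libraries (median 0.04). Pdgfra was at 90.0, 93.8 and 89.8 CPM against 80.2, 86.3 and 85.4.

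**Figure D5:**
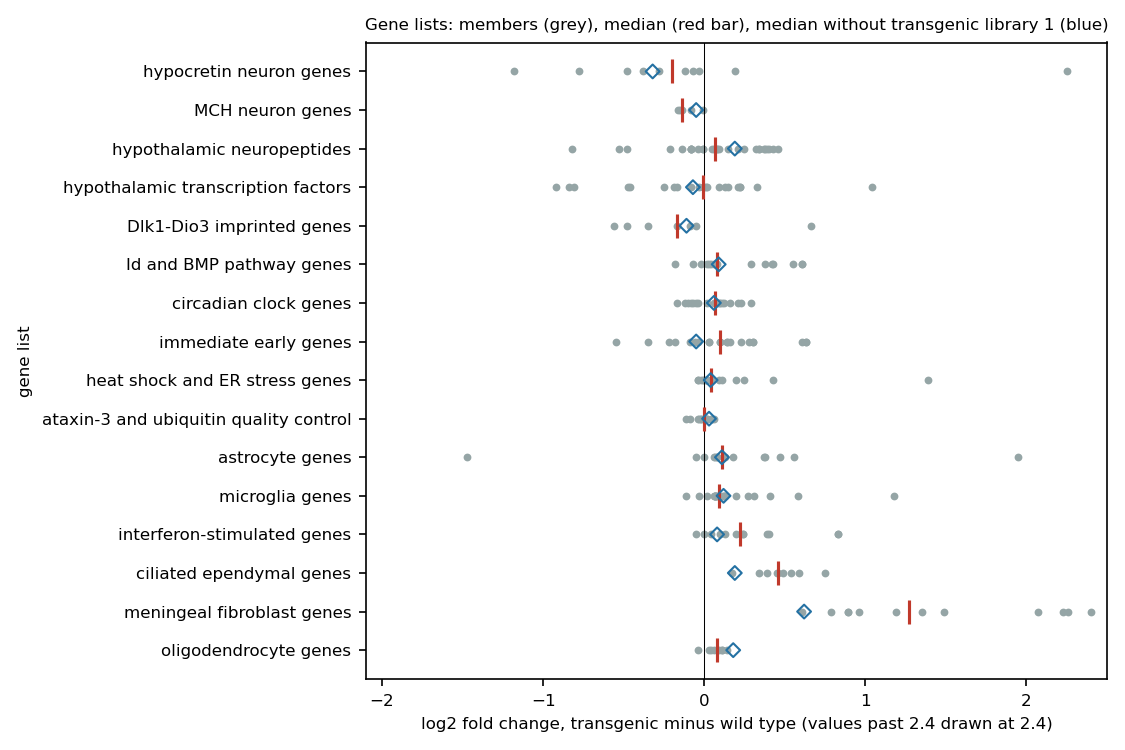
Log2 fold change of each tested member of 16 gene lists (grey), with the list median (red bar) and the median without transgenic library 1 (blue diamond). Most medians lie near 0, those of hypocretin neuron and Dlk1-Dio3 genes below it, and those of ependymal and meningeal genes, 0.46 and 1.27, move to 0.19 and 0.62 without that library.

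Genes of bone morphogenetic protein signalling lay higher in all transgenic libraries in 5 of 15, against 5.21% of all tested genes, none past the threshold. The list median was 0.08, and 0.02 without the 3 libraries. Id4, an inhibitor of helix-loop-helix factors that these signals switch on, was at 101, 93.3 and 90.9 CPM against 70.3, 75.6 and 72.8, a log2 fold change of 0.38 (SE 0.08) with adjusted p of 0.012 by DESeq2 and 0.048 by limma voom. Its change was 0.12 in the knockout, 0.01 in cortex and -0.12 in brainstem. Id3 was at 28.4, 23.2 and 26.3 CPM against 18.9, 20.7 and 18.4, a change of 0.43 (SE 0.12). The ligand Bmp7 was at 20.2, 20.7 and 17.6 CPM against 12.5, 14.3 and 11.6, a change of 0.61 (SE 0.16), and Bmp6 and the target Hes1 had 0.55 (SE 0.32) and 0.29 (SE 0.15). Without the 3 libraries Id4, Id3 and Bmp7 had 0.28, 0.26 and 0.41, and Bmp6 and Hes1 0.09 and 0.07.
Id1 overlapped, with 0.61 (SE 0.23) that was 0.30 without transgenic library 1. Bmp6 and Bmp7 are also made by the meninges, whose genes were higher in the same libraries, and the part of that tissue in the values was not tested.

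Meningeal and ependymal genes lay higher throughout their lists when all 6 libraries were used. Of the meningeal fibroblast genes 12 of 12 lay higher, 5 of them separate, against 52.7% and 5.21% of all tested genes, and none passed the threshold. Their median of 1.27 was 0.62 without transgenic library 1, and without the 3 libraries 6 lay higher and 6 lower with a median of 0.02. Their summed level was 1250 to 2160 CPM against 383 to 1150. Fmod, a matrix proteoglycan, was at 50.2, 40.7 and 31.4 CPM against 13.5, 25 and 4.97. Ptgds, which makes prostaglandin D2, a sleep-promoting lipid, in the leptomeninges, was at 904, 1150 and 970 CPM against 515, 835 and 278, a log2 fold change of 0.89 (SE 0.39). The organic anion transporter Slc22a6 was at 10.5, 10.7 and 11.3 CPM against 3.56, 7.82 and 1.35.
Without the 3 libraries Fmod, Ptgds and Slc22a6 had 0.52, 0.34 and 0.49, against 1.49, 0.89 and 1.35 with them. In each of these 3 genes the lowest was wild-type library 3 and the next wild-type library 1. Ogn and Slc6a13 were the other separate genes, at 1.19 (SE 0.53) and 0.96 (SE 0.46), or 0.25 and 0.23 without the 3 libraries, while Col1a1 and Col3a1 were high in transgenic library 1 alone.
All 9 tested genes of ciliated ependymal cells, which line the third ventricle, lay higher and 5 were separate, against 52.7% and 5.21% of all tested genes, with a median of 0.46. Without transgenic library 1, 7 lay higher and 2 lower with a median of 0.19, and with Gh and Omp as covariates 6 lay higher and 3 lower with a median of 0.15. Ccdc153 and Tmem212 were the even ones, Ccdc153 at 13.8, 13.3 and 13.6 CPM against 9.03, 9.84 and 9.01 and Tmem212 at 7.60, 7.16 and 6.55 CPM against 4.99, 5.25 and 5.21. Their changes were 0.54 (SE 0.18) and 0.46 (SE 0.18), and 0.53 and 0.41 without that library. Foxj1, the master factor of motile cilia, had 0.49 (SE 0.16) and 0.31 without it. Rsph1 and Cfap126 were the other separate genes, and their changes of 0.45 and 0.59 became 0.19 and 0.19, and without the 3 libraries 0.19 and 0.05.

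Genes of the imprinted Dlk1-Dio3 region of chromosome 12 lay lower in 6 of 7, 3 of them separate, against 47.3% and 4.70% of all tested genes, with a median of -0.17 and none past the threshold. Mirg, a long RNA that hosts a cluster of microRNA genes, was at 15.9, 16.9 and 17 CPM against 25.9, 21 and 26.4, which is -0.56 (SE 0.11) on the log2 scale, with adjusted p of 0.98 by edgeR and 0.020 by DESeq2. Meg3, made from the same maternal copy, was at 1560, 1690 and 1560 CPM against 1840, 1990 and 2310, a change of -0.35 (SE 0.19). Dlk1, made from the paternal copy, is given above, and Rian overlapped at -0.17 (SE 0.08).
In knockout hypothalamus Mirg was at 21.7, 27.1 and 22.4 unscaled CPM against 18, 18.4 and 20.8, a change of 0.31 (SE 0.11) in the other direction. The difference between the models was -0.87 (SE 0.16), with an edgeR adjusted p of 0.70 and a DESeq2 adjusted p of 0.007. In cortex the transgenic change was 0.07 and in brainstem -0.32. With Gh and Omp as covariates the change in hypothalamus was -0.42, and without the libraries with pituitary or nasal RNA -0.31.

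The effects on transgenic hypothalamus were set against those in the knockout and in the other regions by tests of the difference itself. Against the knockout, edgeR called 0 of 16738 genes, with 378 at an unadjusted p under 0.05 (2.26%), limma voom 0, and DESeq2 3 (0.0181%), Ghdc, Fkbp10 and Mirg. For Ghdc it is the knockout that differs, with a log2 fold change of -0.87 there against 0.04 here. Fkbp10 had -0.60 there and 0.27 (SE 0.10) here. Ghdc and Fkbp10 both lie within 500 kb of Hcrt, the gene removed in the knockout, and the part of that locus in the calls was not tested. Wild-type library 3 of the knockout line held pituitary RNA, with Gh at 17400 CPM against 6.39 and 4.79 in its libraries 1 and 2. The part of this RNA in the differences between the models was not tested. Against cortex, edgeR called 0 of 17395 genes, with 590 at an unadjusted p under 0.05 (3.39%), and DESeq2 1 (0.00578%), Hcrt, while voom called Prm1 and Fgfbp1. Fgfbp1, a carrier of fibroblast growth factors, was at 2.10, 2.31 and 2.09 CPM against 0.66, 1.21 and 0.468, a log2 fold change of 1.47 (SE 0.43) that was 0.86 without the 3 libraries.
Against brainstem, edgeR called 0 genes, with 950 at an unadjusted p under 0.05 (5.46%), voom 1, Prm1, and DESeq2 12 (0.0694%). Chrnb3, Chrna6 and Kcng4 are among the 12, with differences of -4.20 (SE 0.81), -2.65 (SE 0.48) and -0.85 (SE 0.18). The 12 also hold the non-coding RNA genes Rn7sk, Rpph1 and Gm42418. Brainstem wild-type libraries 1 and 2 had 32.3% and 42% of their counts in unassigned rows, against 27% to 28.1% in the other 4 brainstem libraries of the line, and the part of this in the 12 calls was not tested. Hcrt differed by -6.36 (SE 1.41) between hypothalamus and cortex with a DESeq2 adjusted p of 1.7e-08 and an edgeR adjusted p of 1, on cortex counts of 1 to 3 per library.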

How the data were processed

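Stranded poly(A) libraries (Illumina TruSeq Stranded mRNA, per the labels' protocols) gave deposited tables of raw counts per Ensembl gene that the authors did not normalize. Per the submitters' processing notes, cutadapt 1.2.1, TopHat2 2.0.9 and HTSeq 0.5.4p3 were used with GRCm38. How HTSeq treated strand and overlaps, and with which annotation, is not given in the sources used here, so values of overlapping genes are uncertain. The tables list 38924 genes, plus 5 special rows, 25.2% to 26% of these 6 libraries, which were left out. Symbols for 37607 identifiers came from GENCODE M21. Upstream sequences came from RefSeq (GRCm38.p6).

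In R 4.3.3, edgeR 4.0.16 quasi-likelihood tests (robust, TMM factors 0.984 to 1.02, default filter, 16738 genes) were fitted on the 12 hypothalamus libraries, whose 4 groups shared the spread (coefficient of variation 18%), and for regions on the 18 libraries of the ataxin-3 line. The threshold was a Benjamini-Hochberg adjusted p of 0.05. SE is the log2 fold change over the root of F. With 3 against 3, an exact permutation test cannot go below 0.100. The scripts were tested on simulated data.

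Groups count as separate where all 3 transgenic libraries lie on the same side of all 3 wild-type ones. Genes named are those past a threshold in any tool, the 10 smallest p in each direction with separate groups, and for each list up to 4 smallest p and its defining gene. A few more were named after their values were seen (Kcnh4, Ghdc, Fkbp10, Chrna6, Chrnb3, Fgfbp1, Uba6, and list members such as Mx1 and Vcp). The comparison and the lists were chosen with earlier results of these data known. Alternatives were DESeq2 1.42.0, limma 3.58.1 voom with quality weights, other factors and filters, a replicate block, and Gh and Omp as covariates. Others fitted only the groups compared, or left out each library in turn. A further fit left out the 3 libraries with pituitary or nasal RNA. In hypothalamus it also left out wild-type library 3 of the knockout line, which held pituitary RNA. A few list members are not reported here.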

Additional observations from a re-analysis of the deposited data

Results flagged for a closer look

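Some effects differed between groups by a test of the difference itself, in each case by DESeq2 and not by edgeR. Between transgenic and knockout hypothalamus, Mirg differed by -0.87 (DESeq2 adjusted p = 0.007, edgeR 0.70) and Ghdc by 0.91 (DESeq2 adjusted p = 2.2e-04, edgeR 0.36). Fkbp10 differed by 0.87 in the same comparison (DESeq2 adjusted p = 2.2e-04, edgeR 0.36). Between hypothalamus and cortex of the ataxin-3 line, Hcrt differed by -6.36 (DESeq2 adjusted p = 1.7e-08, edgeR 1). Between hypothalamus and brainstem, Chrnb3 differed by -4.20 (DESeq2 adjusted p = 2.1e-04, edgeR 0.57), Chrna6 by -2.65 (DESeq2 adjusted p = 0.0031, edgeR 0.57) and Kcng4 by -0.85 (DESeq2 adjusted p = 0.019, edgeR 0.65).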

How the results depend on the processing

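Hcrt kept its direction under every alternative, with a log2 fold change of -6.36 to -5.94 and 1 called gene when any single library was left out, and it lost its call (-6.12, edgeR adjusted p = 0.12, 0 genes called) where only the groups compared were fitted. The number of genes called was 7 by DESeq2, 2 with no filter on low counts and 4 by limma voom with quality weights. For the difference from brainstem it was 12 by DESeq2, 1 by voom, 5 without the 3 libraries holding pituitary or nasal RNA and 0 to 53 when a library was left out. The highest count came without wild-type hypothalamus library 2, which leaves the 2 wild-type libraries with pituitary RNA, and there were 3 without brainstem wild-type library 3 and 1 without wild-type hypothalamus library 1. For the difference from cortex it was 1 by DESeq2, 2 by voom, 4 without those libraries and 0 to 29 when a library was left out, with 29 without wild-type hypothalamus library 2 and 1 without library 3. For the difference from the knockout it was 3 by DESeq2 and 0 without any single library.

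Reversed directions, all in genes that no edgeR fit called, were as follows. With Gh and Omp as covariates, log2 fold changes were -0.21 for Ebf2, 0.01 for Gh, -0.01 for Ghdc, -0.21 for Hdc, 0.01 for Igfbp3, 0.03 for Mchr1, -0.28 for Npy, 0.01 for Pmch and 0.62 for Prl. Without the 3 libraries holding pituitary or nasal RNA they were -0.01 for Agrp, -0.08 for Avp, 0.01 for Chgb, -0.18 for Col1a1, -0.12 for Col3a1, -0.51 for Ebf2, 0.50 for Gh, -0.07 for Ghdc, -0.03 for Hcrtr2, -0.37 for Hdc, 0.02 for Mchr1, -0.30 for Npy, 0.12 for Pmch and 0.47 for Prl. By voom they were -0.51 for Bpifa1, 0.01 for Hcrtr1 and -0.01 for Hdc. Leaving out a library gave -0.62 to 7.44 for Bpifa1, -0.36 to 2.76 for Ebf2, -0.08 to 0.21 for Hdc, -0.19 to 0.07 for Mchr1, -0.11 to 0.15 for Npy and -0.13 to 0.04 for Pdyn. For Gh, Prl, Omp and the genes of transgenic library 1 the libraries left out are those that hold the RNA, and for the other genes the cause was not tested. The other 1465 single-gene values kept direction and side of the threshold, and 10 passed it under DESeq2, voom or no filter.

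Same-numbered libraries correlated at 0.32, 0.20 and 0.05 in their deviations from the group means. For transgenic libraries 1 and 2 the same-numbered wild type was the best match, while transgenic library 3 correlated best with wild-type library 2, at 0.19. With 3 libraries a group and RNA of neighbouring tissues in some, these values cannot tell whether replicate numbers pair the libraries. With a replicate block 1 gene was called in hypothalamus, Hcrt, and 0 in each difference. At these depths a gene at 0 counts can hold up to 0.115 CPM in the shallowest library, for counting error only, and genes under 1 CPM rest on few reads.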
